A study of Mus musculus with 6 samples.

Results

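Histone and DNA modifying enzymes were compared between 2 cell populations of young mouse muscle. They comprised 83 genes, of 18193 genes named by the platform annotation. A gene was taken when the symbol of a probe set belonged to the families of histone deacetylases, sirtuins, lysine acetyltransferases, lysine and arginine methyltransferases, lysine demethylases, DNA methyltransferases, Tet dioxygenases or Uhrf proteins. Kdm5d was left out. The 83 genes had 197 probe sets, and the probe set with the highest mean over the 6 arrays stood for each gene. Uhrf1bp1 and Uhrf1bp1l entered by the letters of their names and are not known to modify histones or DNA.

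The cells came from the hindlimbs of C57 black 6 mice, 7 to 9 days of age, without treatment or transgene in the labels. PICs are interstitial cells of muscle, known in the field for expressing PW1, and satellite cells are stem cells that lie along muscle fibres. Flow sorting by CD34 and Sca1 parted the populations, and each has 3 arrays described as biological replicates; whether a replicate pools several animals is not given in the labels. The p-values therefore measure the spread between these arrays.

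Acetyl groups on histones are placed by acetyltransferases and removed by deacetylases, and open chromatin is generally acetylated. Methyl groups on histone lysines and arginines mark active or silent chromatin depending on the residue, and each mark has its own writers and erasers. DNA methylation is set by Dnmt3 enzymes, copied after replication by Dnmt1 with Uhrf1, and oxidised by Tet enzymes. In the muscle lineage, class IIa deacetylases are known to bind and repress Mef2 factors, and the polycomb enzyme Ezh2 is known to hold muscle genes silent in progenitors.

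The sort was checked against markers. The 10 myogenic progenitor markers were all called higher in satellite cells, with summed intensities of 4938 to 6671 in PICs, against 40288 to 46365 in satellite cells. The 9 fibro-adipogenic markers with a named probe set were all called higher in PICs, with sums of 93487 to 98107 against 15761 to 25136; Clec3b among them passed the filter through the PIC arrays alone. Endothelial markers had 0 of 10 genes called by limma in either direction and 0 at an unadjusted p under 0.05. Leukocyte markers had 4 of 9 genes that passed the filter on low values, of which limma called 0 (also 0 by unadjusted p under 0.05). In 2 of the 9, Cd3e and Itgam, no array rose above the low value level. The sums of the 9 were 2043 and 2689 on the arrays numbered 1 and 96 to 235 on the other arrays. Red cell markers had 0 of 2 tested genes called by limma and 0 at an unadjusted p under 0.05, and were also highest on the arrays numbered 1 (2657 and 1772, against 118 to 328). Every array had a median intensity of 10.

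Markers of other cell types did differ. Of the 10 muscle fibre markers, 5 were called higher in PICs (Tnni2, Mylpf, Myl1, Tnnc2 and Tnnt3, genes of the fast contractile apparatus, by 1.83 to 2.84) and 3 in satellite cells (Atp2a1, Myh3 and Myh8, by -4.49, -4.41 and -3.95). The 5 fast fibre genes were much lower on satellite replicates 2 and 3 than on satellite replicate 1, and the sums of the list overlapped (6584 to 8027 in PICs, 4843 to 10746 in satellite cells). Of 5 tested Schwann cell markers, Ngfr (3.08) and S100b (1.90) were called higher in PICs, whereas Sox10 and Mbp did not pass; the sums overlapped (3211 to 14128 in PICs, 3846 to 10532 in satellite cells). Of 8 mural cell markers, Cspg4 (2.23) was called higher in PICs and Des (-3.11) and Notch3 (-1.26) in satellite cells, where these last genes are also known in myogenic cells; the sums were 6469 to 15582 in PICs and 10665 to 14551 in satellite cells. The part of fibre, Schwann or mural RNA in the values of the enzymes was not tested.

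Letters of known binding motifs were looked up in the promoters of the members that differed most, to show what sequence lies before their start sites. RefSeq windows of the 250 bases before a start site (build GRCm38.p6) were at hand for 69 of the 83 members. The letters TTTCCCGC, TTTCGCGC, TTTGCCGC and TTTGGCGC, read on both strands, are forms of the site of E2F factors, which act in the G1 to S transition. They occurred before Dnmt1, Kat2a and Uhrf1, that is, in 3 of the 11 members that were higher in satellite cells by the test described further on. They occurred in 0 of 5 members higher in PICs, in 1 of the 47 other tested members with a window (Sirt4), and in 2.16% of all 27025 genes with a window. The letters CAGCTG are a form of the E-box bound by myogenic factors. Among those 11 members they occurred before Hdac11 and Suv39h2 (18.2%, close to the 14.7% of all genes). The same letters stood before 0 of the 5 members higher in PICs and 6 of the 47 other tested members with a window (12.8%). In the lines that follow, capitals mark the match, and each sequence reads towards the gene in the 5′ to 3′ direction.
Dnmt1 (chr9:20952809-20952868, minus strand, 1 of its 3 windows): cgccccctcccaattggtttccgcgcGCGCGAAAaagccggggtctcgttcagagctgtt
Kat2a (chr11:100712493-100712552, minus strand): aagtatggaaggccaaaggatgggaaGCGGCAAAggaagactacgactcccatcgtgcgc
Uhrf1 (chr17:56304102-56304161, plus strand, 1 of its 2 windows): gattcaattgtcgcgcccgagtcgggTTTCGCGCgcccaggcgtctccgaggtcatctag
Hdac11 (chr6:91156685-91156742, plus strand): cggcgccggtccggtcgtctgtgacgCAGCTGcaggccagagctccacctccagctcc
The matches end 211, 51, 177 and 98 bases before the start sites of Dnmt1, Kat2a, Uhrf1 and Hdac11. A match of letters is a description of the sequence and does not show that a factor binds there.

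Of the 83 members, 77 passed the filter on low values (log2 intensity above 4 on 3 or more arrays), and 76 of these lay above that level on all 6 arrays. The remaining 6, Dnmt3l, Hdac9, Kdm4d, Prmt8, Sirt6 and Tet3, lay between 2.32 and 3.81 on the log2 scale on every array and were not tested. Each difference is the mean log2 level in PICs less that in satellite cells, tested with limma over all 10855 genes of the array that passed the filter. A call required a Benjamini-Hochberg adjusted p under 0.05 together with a 2-fold difference, which is 1 on the log2 scale.

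Hdac11, Uhrf1, Dot1l, Ezh2, Suv39h2, Prmt1, Dnmt1, Kat2a, Prmt5, Sirt2 and Prmt7 were called higher in satellite cells. Dnmt3a, Prmt2, Hdac5, Kdm5b and Hdac7 were called higher in PICs. The 16 calls are 20.8% of the 77 tested members, where 29.8% of all genes tested were called. By direction, 14.3% of members were called higher in satellite cells (13.0% of all genes) and 6.49% were called higher in PICs (16.7% of all genes). At an adjusted p under 0.05 and any size, 36 members (46.8%) passed, against 56.3% of all genes tested; 29 members were higher in satellite cells (37.7%, against 28.6% of all genes) and 7 were higher in PICs (9.09%, against 27.6%). The median difference was -0.24 over the members and -0.04 over all genes tested.

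**Figure D1:**
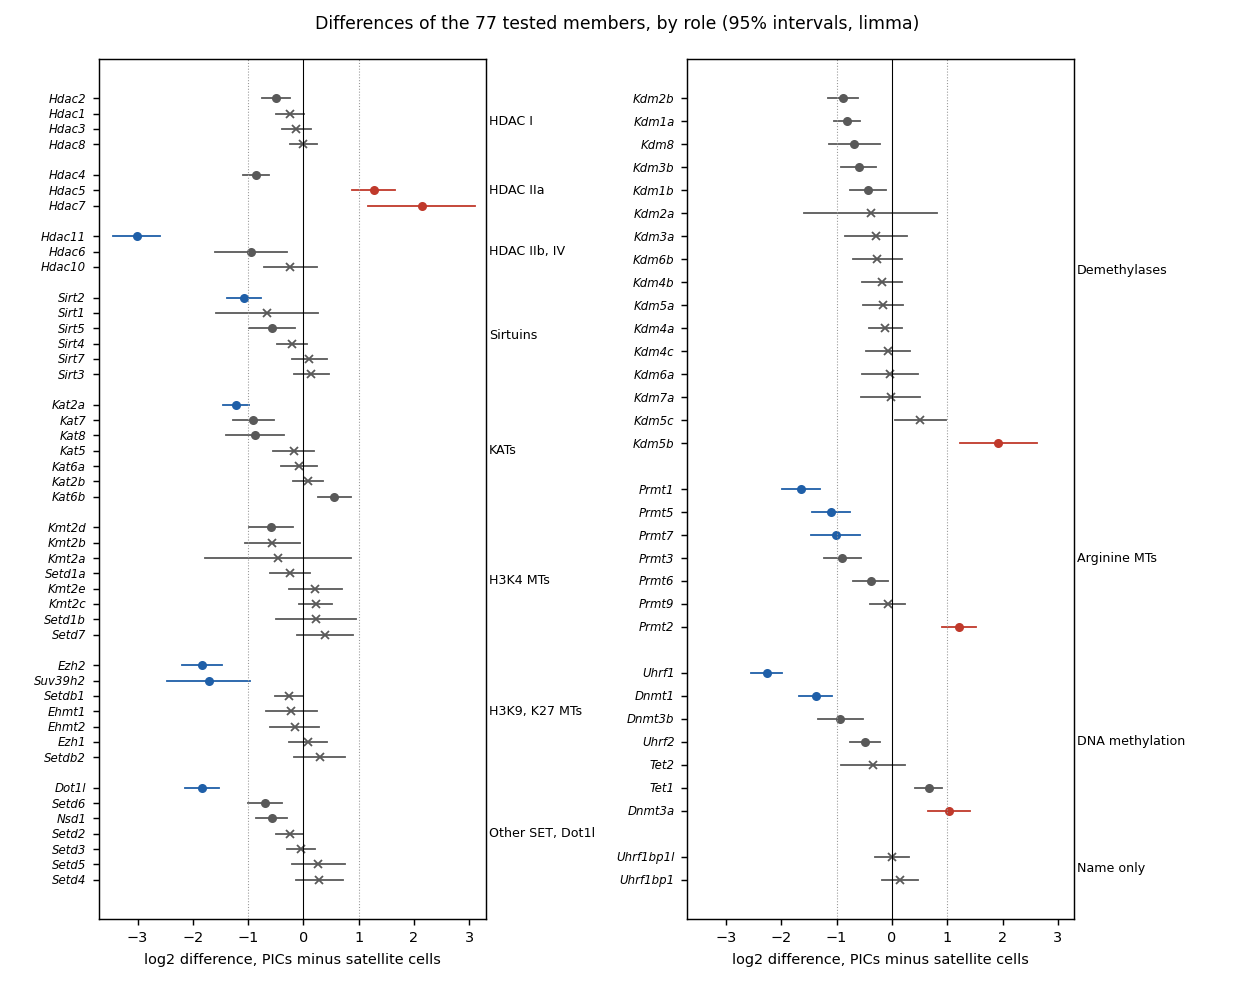
Log2 differences (PICs minus satellite cells) of the 77 tested members with limma's 95% intervals, grouped by role. Blue members were called higher in satellite cells and red ones higher in PICs, filled grey circles had an adjusted p under 0.05 without reaching 2-fold, and crosses did not pass; dotted lines mark 2-fold. Most symbols lie left of 0 and within the dotted lines.

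**Figure D2:**
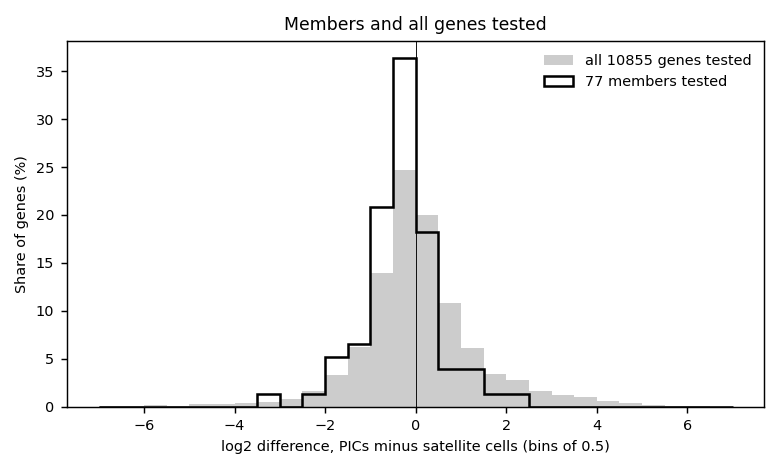
Share of genes in bins of 0.5 of the log2 difference, for the 77 members (black outline) and all 10855 genes tested (grey). The members' differences ran from -3.02 to 2.14 and those of all genes from -6.89 to 6.28.

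Among the members, 55 differences were below 0 and 22 above, and 61 of the 77 lay within 2-fold either way. The satellite arrays all lay above the PIC arrays in 35 members (45.5%, against 33.2% of all genes) and the PIC arrays above in 9 (11.7%, against 31.3%). Together these are 57.1% of members, against 64.6% of all genes tested. All 16 called members were parted in this way. In these arrays of bulk cells, a lower level can reflect fewer cells that express a gene or less RNA per cell, and the values do not tell these apart.

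The DNA methylation genes showed differences in both directions. Uhrf1, which reads hemimethylated DNA after replication and brings in Dnmt1, had log2 levels of 9.83, 9.89 and 9.68 in PICs and of 12.04, 12.18 and 11.97 in satellite cells. All satellite arrays lay above all PIC arrays, and Uhrf1 was 4.80-fold higher in satellite cells (difference -2.26, 95% interval -2.54 to -1.98, limma adjusted p = 5.36e-05). Its other probe set differed by -2.38. Dnmt1, the maintenance methyltransferase, had levels of 9.51, 9.58 and 9.82 in PICs and 11.02, 10.96 and 11.06 in satellite cells. It was 2.60-fold higher in satellite cells, without overlap (adjusted p = 0.000224), and its other probe sets both differed by -1.40.

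The de novo enzymes Dnmt3a and Dnmt3b differed in opposite directions. Dnmt3a lay at 10.41, 10.10 and 10.21 in PICs and at 9.43, 9.00 and 9.19 in satellite cells. It was 2.05-fold higher in PICs (difference 1.04, 95% interval 0.66 to 1.41, adjusted p = 0.00164), and each PIC array exceeded every satellite array. The size sat close to the 2-fold line, and the call was lost without PIC replicate 1 (0.95) and without satellite replicate 2 (0.93). Of its other kept probe sets, 1 was called (1.30), and the remaining ones differed by 0.94 and 1.16 with wide spread between replicate numbers (adjusted p over probe sets of 0.0534 and 0.235). Dnmt3b lay at 6.52, 6.75 and 6.95 in PICs and at 7.62, 7.50 and 7.90 in satellite cells. Its difference of -0.93 passed the adjusted p (0.0035) and fell short of 2-fold. Without satellite replicate 2 it was called, at -1.02, and another probe set of Dnmt3b differed by -1.07 and was called.

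Tet1, which oxidises methylcytosine, had a level of 9.23, 9.18 and 9.30 in PICs and 8.53, 8.61 and 8.56 in satellite cells. The PIC arrays were all above, by 0.67 (adjusted p = 0.00167). Its other kept probe sets differed by 0.41 and 0.63 without passing (adjusted p over probe sets of 0.218 and 0.413). With the mean of its kept probe sets Tet1 differed by 0.57 and did not pass (adjusted p = 0.123). Tet2 differed by -0.35 with overlapping arrays (95% interval -0.93 to 0.23). Uhrf2, a relative of Uhrf1, was higher in satellite cells by a smaller amount (-0.49, adjusted p = 0.0107). In all, 4 of the 7 tested genes of this group passed the adjusted p towards satellite cells (57.1%, against 28.6% of all genes). Towards PICs 2 passed (28.6%, close to the 27.6% of all genes).

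Writers of silencing marks on histone H3 differed by gene. Ezh2, the catalytic subunit of the polycomb complex PRC2, lay at 9.93, 9.95 and 9.73 in PICs and at 11.45, 11.81 and 11.85 in satellite cells. All satellite arrays were higher, 3.55-fold on average (difference -1.83, 95% interval -2.19 to -1.47, adjusted p = 0.000167). Ezh1, the alternative catalytic subunit, lay between 7.72 and 8.13 on all arrays and differed by 0.08 (95% interval -0.25 to 0.42). Suv39h2, which trimethylates lysine 9 of H3 in heterochromatin, had levels of 3.00, 3.70 and 3.91 in PICs and 5.09, 5.75 and 4.91 in satellite cells. The PIC arrays all lay at or under the low value level, so satellite cells exceeded PICs at least 2.38-fold (fitted difference -1.71, adjusted p = 0.00385). It passed the filter through the satellite arrays alone, which favours a difference, and on a scale of log2 of the intensity plus 16 it differed by -0.97, under 2-fold.

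The other lysine 9 writers did not pass. Ehmt1, Ehmt2 and Setdb2 differed by -0.22, -0.16 and 0.29 with overlapping arrays, and Setdb1 by -0.26 (95% interval -0.52 to 0.00, adjusted p = 0.0823). Of the 7 tested genes of the group, 2 were called (28.6%, close to the 29.8% of all genes), Ezh2 and Suv39h2, and the latter passed the filter through the satellite arrays alone.

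Subunits of the polycomb complexes outside the enzyme families were read from a separate list of 30 tested genes. At an adjusted p under 0.05, 14 were higher in satellite cells (46.7%, against 28.6% of all genes) and 3 in PICs (10.0%, against 27.6%), and the median difference was -0.36. In either direction that is 56.7%, close to the 56.3% of all genes. The PRC2 core subunits Eed (-1.18, adjusted p = 0.000423) and Suz12 (-1.03, adjusted p = 0.00077) were called in the direction of Ezh2. The PRC1 genes Pcgf5 (-2.48), L3mbtl2 (-1.59) and Bmi1 (-1.03) were also called higher in satellite cells. Cbx6 (1.20) and Pcgf2 (1.81), which encode alternative PRC1 subunits, were called higher in PICs. The Pcgf2 probe set lay at 5.75, 6.27 and 5.32 in PICs and 3.17, 4.64 and 4.09 in satellite cells, near the low value level in the latter.

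Uhrf1, Dnmt1 and Ezh2 are known to be induced in cycling cells, and a list of proliferation genes was read beside them. All 19 of its tested genes passed the adjusted p towards satellite cells and 18 were called, with a median difference of -1.71. Tyms, 1 of these calls, lay at or under the low value level on every PIC array, against 5.43, 4.70 and 4.91 in satellite cells, and so passed the filter through the satellite arrays alone. Their summed intensity was 28220, 29636 and 33965 in PICs, against 76021, 92104 and 92476 in satellite cells. The part of proliferation in the differences of the enzymes was not tested.

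**Figure D3:**
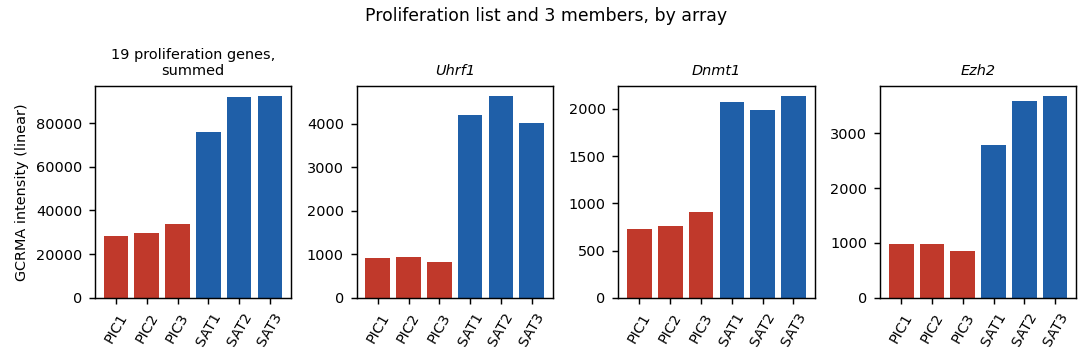
Linear GCRMA intensities on each array (PIC1 to PIC3 and SAT1 to SAT3) of the summed 19 proliferation genes and of Uhrf1, Dnmt1 and Ezh2, with bars from 0 and a separate scale in each panel. All satellite bars exceed all PIC bars in each panel.

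Dot1l, the methyltransferase of lysine 79 of H3, lay at 7.92, 7.71 and 7.99 in PICs and at 9.60, 9.67 and 9.85 in satellite cells. The populations did not overlap, and the level was 3.56-fold higher in satellite cells (difference -1.83, adjusted p = 0.000107). A further Dot1l probe set differed by -1.89. Setd6, a methyltransferase of the NF-kappaB subunit RelA, and Nsd1, which methylates lysine 36 of H3, were higher in satellite cells by under 2-fold (-0.69 and -0.57, adjusted p = 0.00425 and 0.00643). Setd2, the enzyme that trimethylates lysine 36, lay higher on every satellite array by a small amount and did not pass (-0.25, adjusted p = 0.0698). Setd3, a histidine methyltransferase of actin, differed by -0.04 (95% interval -0.29 to 0.21).

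Setd5 gave different answers with different probe sets. The probe set of highest mean lay at 8.42, 8.08 and 7.71 in PICs and at 7.66, 7.96 and 7.79 in satellite cells, with overlap (difference 0.27, adjusted p = 0.296). Another probe set read 5.98, 6.49 and 6.81 in PICs and 3.91, 4.70 and 5.36 in satellite cells, and was called at 1.77. The direction is the same on both, and the call for Setd5 depends on the probe set.

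The writers of lysine 4 methylation, a mark of active promoters and enhancers, had 0 of 8 tested genes called by limma (against 29.8% of all genes). There was 1 at an adjusted p under 0.05 (12.5%, against 56.3% of all genes) and 2 at an unadjusted one (against 6654 of all 10855 genes tested). The 1 that passed was Kmt2d, a methyltransferase of enhancers, at 9.62, 9.25 and 9.14 in PICs and 10.06, 9.93 and 9.79 in satellite cells (-0.59, adjusted p = 0.0207). Kmt2b lay higher on all satellite arrays and missed the threshold (-0.56, adjusted p = 0.0566). Kmt2a lay at 7.99, 7.82 and 5.93 in PICs and 7.95, 7.80 and 7.37 in satellite cells. Its PIC replicate 3 stood far below the other PIC arrays, and the interval of the difference was wide (-1.78 to 0.86). Kmt2c, Kmt2e, Setd1b and Setd7 differed by 0.22, 0.22, 0.22 and 0.39, and none of these passed.

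Shared subunits of the complexes that carry the lysine 4 writers were read from a list of 12 tested genes. At an adjusted p under 0.05, 7 were higher in satellite cells (58.3%, against 28.6% of all genes) and 1 in PICs (8.33%, against 27.6%). In either direction 16.7% were called, against 29.8%. Hcfc1 (-0.98), Rbbp5 (-0.97), Dpy30 (-0.87), Ash2l (-0.79) and Wdr5 (-0.76) passed without reaching 2-fold. Both called genes belong to the complexes of Kmt2c and Kmt2d, Paxip1 towards satellite cells (-1.38, adjusted p = 0.00227) and Pagr1a towards PICs (1.15, adjusted p = 0.000461).

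Among the erasers of lysine methylation, Kdm5b was the member called, 1 of 16 tested (6.25%, against 29.8% of all genes). Kdm5b, which removes methyl groups from lysine 4 of H3, lay at 9.89, 10.00 and 9.11 in PICs and at 8.14, 7.58 and 7.48 in satellite cells. Every PIC array was above every satellite array, 3.80-fold on average (difference 1.93, 95% interval 1.23 to 2.63, adjusted p = 0.00168). Its other kept probe sets differed by 2.36 and 1.51 and were called too. Of its relatives, Kdm5c lay higher on all PIC arrays without passing (0.51, adjusted p = 0.0578; 0.021 with the replicate number as a block), although a further probe set of Kdm5c gave 0.65 (adjusted p over probe sets of 0.00674). Kdm5a differed by -0.16 with overlap.

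A further 5 of the 16 tested demethylases passed the adjusted p towards satellite cells without reaching 2-fold. That is 31.2%, close to the 28.6% of all genes. Kdm2b, which recruits a PRC1 complex to unmethylated CpG islands, had levels of 9.43, 9.35 and 9.42 in PICs and 10.15, 10.31 and 10.39 in satellite cells (-0.88, adjusted p = 0.000793). Kdm1a, the lysine 4 demethylase LSD1, differed by -0.81 (adjusted p = 0.000701), and by -1.03 on its other probe set. Kdm8, Kdm3b and Kdm1b differed by -0.68, -0.60 and -0.43. The lysine 27 demethylases Kdm6a and Kdm6b, which oppose Ezh2 in their reaction, differed by -0.03 (95% interval -0.53 to 0.48) and -0.26 (-0.71 to 0.18). Kdm2a had the widest interval of the group (-1.58 to 0.81), with PIC arrays at 8.43, 8.25 and 6.60.

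The arginine methyltransferases had 4 of 7 tested genes called (57.1%, against 29.8% of all genes). Prmt1, which makes most asymmetric dimethylarginine in cells, lay at 10.21, 10.14 and 10.56 in PICs and at 11.88, 12.00 and 11.94 in satellite cells. It was 3.11-fold higher in satellite cells, without overlap (difference -1.64, 95% interval -1.98 to -1.29, adjusted p = 0.000203). Prmt5, the main enzyme of symmetric dimethylarginine, lay at 8.53, 8.51 and 8.27 in PICs and at 9.55, 9.71 and 9.34 in satellite cells. All satellite arrays were above, by 2.14-fold (adjusted p = 0.000909). Prmt7, which makes monomethylarginine, lay at 7.42, 7.52 and 8.05 against 8.65, 8.65 and 8.73 (2.02-fold, adjusted p = 0.0036). Its size was at the 2-fold line, and the call was lost without PIC replicate 1 (-0.89), PIC replicate 2 (-0.95) or satellite replicate 3 (-0.99).

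Prmt2, a coactivator of nuclear receptors with weak methyltransferase activity, went the other way. It lay at 10.16, 10.16 and 10.39 in PICs and at 9.15, 8.90 and 9.03 in satellite cells, 2.31-fold higher in PICs (adjusted p = 0.000387). Another Prmt2 probe set differed by 1.01 and was called as well. Prmt3, which methylates a ribosomal protein, and Prmt6 passed the adjusted p towards satellite cells at -0.90 and -0.38. Prmt9 differed by -0.07 (95% interval -0.39 to 0.24).

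Histone deacetylases of class I had 0 of 4 genes called by limma (against 29.8% of all genes). There was 1 at an adjusted p under 0.05 (25.0%, against 56.3% of all genes) and 1 at an unadjusted one (against 6654 of all 10855 genes tested). Of these genes, Hdac1, Hdac2 and Hdac3 encode catalytic subunits of the Sin3, NuRD, CoREST or NCoR co-repressor complexes. Hdac2 lay at 11.78, 11.84 and 11.79 in PICs and at 12.20, 12.37 and 12.32 in satellite cells (-0.49, adjusted p = 0.00717). Its other kept probe sets differed by -0.68 and -0.77 (adjusted p over probe sets of 0.0115 and 0.432), the latter near the low value level. With the mean of its kept probe sets Hdac2 differed by -0.64 and did not pass (adjusted p = 0.102). Hdac1 and Hdac3 also lay higher on all satellite arrays, by amounts that did not pass (-0.24 and -0.13). Hdac8 differed by 0.00 (95% interval -0.25 to 0.25) at levels of 4.39 to 4.52, close to the low value level.

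Class IIa deacetylases, which shuttle between nucleus and cytoplasm and repress Mef2 targets, differed in both directions. Hdac7 lay at 8.02, 8.22 and 6.67 in PICs and at 5.43, 5.43 and 5.64 in satellite cells. The populations did not overlap, PIC replicate 3 was well below the other PIC arrays, and the mean was 4.41-fold higher in PICs (difference 2.14, 95% interval 1.18 to 3.10, adjusted p = 0.00428). Hdac7 is also known for its role in endothelium. The endothelial markers summed to 8234, 6188 and 2403 in PICs, against 6070, 4697 and 4300 in satellite cells, and their part in the Hdac7 values was not tested. Without both arrays numbered 1 the difference was 1.91 and was not called (adjusted p = 0.0514). Hdac5 lay at 9.08, 9.17 and 8.95 in PICs and at 7.66, 7.63 and 8.10 in satellite cells, 2.41-fold higher in PICs (adjusted p = 0.000816). Hdac4 lay at 7.31, 7.35 and 7.32 against 8.22, 8.13 and 8.21, higher in satellite cells by under 2-fold (-0.86, adjusted p = 0.000534).

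Hdac11, the class IV deacetylase, had the largest difference of any tested member. Its levels were 7.48, 7.57 and 7.58 in PICs and 10.72, 10.78 and 10.19 in satellite cells. It was 8.10-fold higher in satellite cells (difference -3.02, 95% interval -3.45 to -2.59, adjusted p = 7.56e-05), and its other probe set differed by -3.31. The class IIb enzyme Hdac6, a tubulin deacetylase, lay at 6.93, 7.18 and 7.79 in PICs and 7.94, 8.21 and 8.60 in satellite cells (-0.95, adjusted p = 0.0228). Without satellite replicate 1 it was called, at -1.10. It missed the adjusted p without PIC replicate 1 (0.0661), PIC replicate 2 (0.0771), satellite replicate 2 (0.0615) or satellite replicate 3 (0.067). It also missed it with no filter (0.0922) and without both arrays numbered 1 (0.06). Within each population the Hdac6 level was highest on the array numbered 3. Hdac10 differed by -0.23 with overlap.

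Co-repressor subunits that work with the deacetylases numbered 24 tested genes, of which 7 passed the adjusted p towards satellite cells (29.2%, close to the 28.6% of all genes) and 3 towards PICs (12.5%, against 27.6%). Sap30, a subunit of the Sin3 complex, lay at 7.17, 7.03 and 7.11 in PICs and at 9.38, 9.67 and 9.51 in satellite cells (-2.42, adjusted p = 4.96e-05). Chd3 and Chd4, the alternative remodelling ATPases of NuRD, differed in opposite directions. Chd3 was called higher in PICs (1.68, adjusted p = 0.00138), and Chd4 was higher in satellite cells by under 2-fold (-0.78, adjusted p = 0.00835).

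Sirtuins are deacetylases that consume NAD. Sirt2, which acts largely on cytoplasmic proteins such as tubulin, lay at 9.94, 9.95 and 10.11 in PICs and at 11.18, 11.15 and 10.89 in satellite cells. It was 2.11-fold higher in satellite cells, without overlap (adjusted p = 0.000619); without both arrays numbered 1 it differed by -0.99, just under 2-fold. Sirt5, a mitochondrial desuccinylase, passed below 2-fold (-0.57, adjusted p = 0.028), and its other kept probe set differed by -0.09. Sirt1 lay at 8.62, 8.83 and 9.86 in PICs and at 9.31, 9.70 and 10.26 in satellite cells. Each satellite array was above the PIC array of equal number, but the populations overlapped and the difference of -0.66 did not pass (adjusted p = 0.191). With the replicate number as a block it passed (adjusted p = 0.0108), as it did with array weights (0.00455), without PIC replicate 3 (0.0293) and without both arrays numbered 3 (0.0259); over all alternatives the adjusted p ran from 0.00455 to 0.444. Sirt3, Sirt4 and Sirt7 differed by 0.14, -0.21 and 0.11.

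Lysine acetyltransferases had 1 of 7 tested genes called (14.3%, against 29.8% of all genes). Kat2a, the acetyltransferase GCN5 of the SAGA complex, lay at 9.16, 9.12 and 9.12 in PICs and at 10.33, 10.32 and 10.40 in satellite cells. The spread within each population was small, and the level was 2.32-fold higher in satellite cells (difference -1.21, 95% interval -1.45 to -0.98, adjusted p = 0.00016). With the mean of its 3 kept probe sets the difference was -0.88, under 2-fold. Its paralog Kat2b differed by 0.08 (95% interval -0.20 to 0.35). Kat7 and Kat8, which act on histones H3 and H4, passed towards satellite cells at -0.91 and -0.88. Kat6b passed towards PICs at 0.56 (adjusted p = 0.00911). Kat5 and Kat6a differed by -0.18 and -0.08 with overlapping arrays.

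Acetyltransferases and subunits outside the families had 3 of 25 tested genes called, all towards satellite cells. The share of 12.0% is close to the 13.0% of all genes called in that direction, against 29.8% called in either. Towards PICs 0 were called, against 16.7% of all genes. Past the adjusted p in either direction were 28.0%, against 56.3% of all genes. The called genes were the nuclear receptor coactivator Ncoa1 (-2.08), the scaffold Brpf1 (-1.21) and Kansl2 (-1.09), a subunit of a Kat8 complex. The general coactivators Ep300 and Crebbp differed by 0.07 and -0.05. Methyltransferases outside the families had 3 of 13 called, all towards satellite cells. That is 23.1%, against 13.0% of all genes in that direction and 29.8% in either. These were Nsd2 (-1.91), Prdm2 (-1.71) and Kmt5a (-1.07).

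Readers of histone marks had 0 of 15 tested genes called by limma (against 29.8% of all genes). An unadjusted limma p under 0.05 was reached by 10 of the 15, and by 6654 of all 10855 genes tested. At an adjusted p under 0.05, 6 were higher in satellite cells (40.0%, against 28.6% of all genes). In PICs 1 was higher (6.67%, against 27.6%). Readers of DNA methylation and repair genes had 2 of 10 called, against 29.8% of all genes. Hells, a remodeller needed for DNA methylation, was higher in satellite cells (-1.37, adjusted p = 0.00087), and Zbtb4, a methyl-CpG binding repressor, was higher in PICs (1.26, adjusted p = 0.0002).

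**Figure D4:**
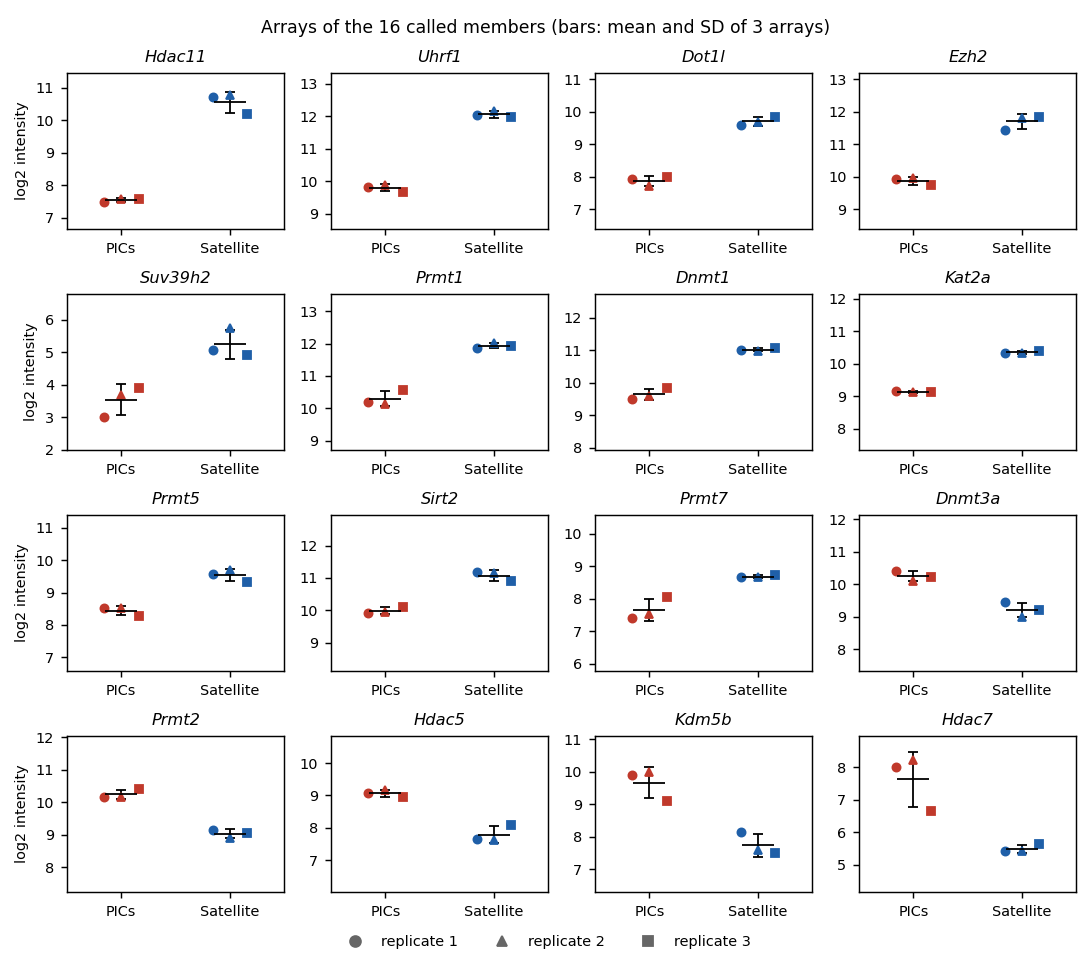
Log2 GCRMA intensities of the 16 called members on each array, ordered from the largest difference towards satellite cells to the largest towards PICs. Symbols give the replicate number, and bars the mean and SD of the 3 arrays; each panel spans the same range of log2 units. In all 16 panels the populations do not overlap.

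Probe sets of the same gene were compared for the 42 members with more than 1 kept probe set. In 36 of them all kept probe sets had differences of 1 sign. Of the called members, 10 had another kept probe set, and in 9 of these at least 1 other was called in the same direction; the exception was Suv39h2, at -0.87. For 6 called members (Ezh2, Hdac5, Prmt1, Prmt5, Prmt7 and Sirt2) a single kept probe set was measured. Of the 15 other kept probe sets of called members, 0 were called in the opposite direction. Besides Setd5, the uncalled members Dnmt3b, Kdm1a and Prmt6 had another probe set that was called, and that of Prmt6 differed by -1.12.

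**Figure D5:**
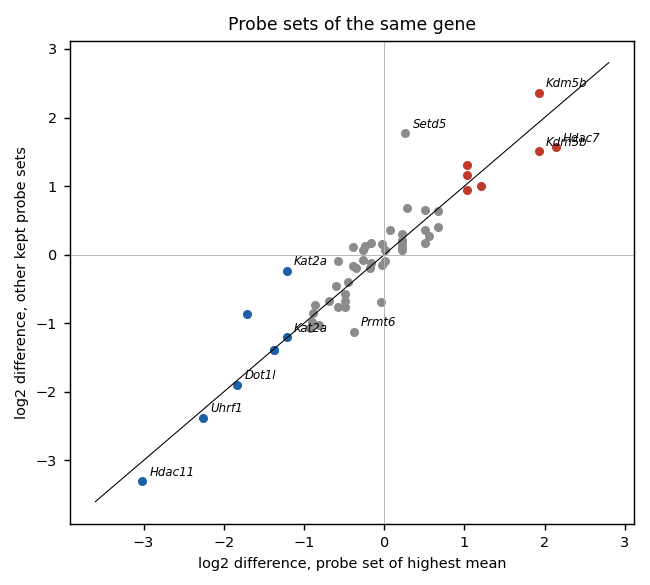
Log2 differences of 59 further kept probe sets against that of the probe set with the highest mean for the same gene, with the line of equality. Blue and red points belong to members called higher in satellite cells and in PICs, and grey points to members not called; Setd5 lies farthest above the line.

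PIC replicate 3 stood apart from the other PIC arrays for more members than any other array did from its own group. It lay over 0.5 from the mean of the others in 17 members, where the other 5 arrays did so in 3 to 10. In Hdac7, Kdm2a, Kmt2a, Setd1b and Sirt1 the gap was over 1. Without this array 17 members were called higher in satellite cells instead of 11, and 5 were called higher in PICs. The added ones were Dnmt3b, Hdac6, Kat7, Kat8, Prmt3 and Sirt1. Of all 10855 genes tested, 1466 were called higher in satellite cells without this array, against 1415 with all arrays. Towards PICs the counts of all genes were 1793 and 1815. Some probe sets were low on both arrays numbered 3. By more than 1 on the log2 scale this held for 6 of 136 kept member probe sets, those of Dnmt3a, Hdac2, Kdm5a, Kmt2c, Kmt2e and Tet1, and for 301 of all 18433. For the arrays numbered 1 and 2 the counts were 0 of the members and 34 and 1 of all probe sets. Without both arrays numbered 3, 13 members were called higher in satellite cells and 5 in PICs (1456 and 1827 of all 10855 genes tested).

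For the 41 members that did not pass, differences ran from -0.66 to 0.51. In 37 of them the 95% interval lay within 2-fold in either direction, and the exceptions were Kdm2a, Kmt2a, Kmt2b and Sirt1.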

How the data were processed

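Total RNA of 6 sorted cell samples was hybridised to 1-colour Affymetrix arrays, 1 array per sample and 3 per population. The authors deposited intensities made with GCRMA, per the submitters' processing notes, without a version; they are linear and rounded to whole numbers, and were taken to log2 here. GCRMA draws unexpressed probe sets to a common floor, which narrows their spread. Scan dates were not used here. Probe sets were named from the platform annotation (34945 of 45037 had 1 symbol) and symbols were updated by RefSeq gene number for 34741.

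The 18433 probe sets with 1 symbol and log2 above 4 on at least 3 arrays were kept. For each of 10855 genes the one of highest mean was fitted in limma 3.58.1 under R 4.3.3 (two-sided tests from lmFit and eBayes). The p-values were adjusted over all genes by Benjamini and Hochberg. The procedure was run on simulated data with independent noise on each array. Those data lack the shared deviations by replicate number described below, so that run does not cover them. Probe sets of a gene were also fitted together, adjusted over all kept probe sets. Members are named by a fixed rule: called members first, then those past the adjusted p, and the rest by values; of partner lists, up to 3 called genes per direction and further genes chosen after their values were seen. The members and lists were chosen with earlier results of these data known.

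Arrays of equal replicate number deviated together (correlations across genes of 0.623, 0.222 and 0.579, against -0.568 to 0.0363 for unequal numbers). The pairing comes from the data, not the labels, and the tests given are without it. Other filters, probe set rules, scalings, variance models, the replicate block and fits without each array were run. The number of arrays limits the precision.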

Additional observations from a re-analysis of the deposited data

How the results depend on the processing

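Under 18 alternatives, 10 of the 16 called members were called each time: Dnmt1, Dot1l, Ezh2, Hdac11, Hdac5, Kdm5b, Prmt1, Prmt2, Prmt5 and Uhrf1. The alternatives included 2 chosen after seeing the data, without both arrays numbered 3 and without both numbered 1. No member past a threshold changed sign. The other 6 calls (Dnmt3a, Hdac7, Kat2a, Prmt7, Sirt2 and Suv39h2) were lost under 1 to 5 alternatives, and 8 uncalled members were called under 1 to 4. Without PIC replicate 3 the members called higher in satellite cells rose to 17, and fits without each array gave 10 to 17. For PICs these fits gave 4 to 5. Of all 10855 genes the same fits called 1330 to 1466 towards satellite cells and 1699 to 1849 towards PICs. With array weights, 14 members instead of 7 passed the adjusted p towards PICs (18.2%) and 36 instead of 29 towards satellite cells (46.8%); all genes rose too, from 27.6% to 36.4% towards PICs and from 28.6% to 38.7% towards satellite cells, and the cause was not tested. The count past the adjusted p towards satellite cells also fell, to 23 to 28 in the fits without each array (29.9% to 36.4%, against 21.9% to 28.8% of all genes). With no filter it was 25 (32.5%, against 14.6% of all genes). Without both arrays numbered 1 it was 21 (27.3%, against 20.5%), with 5 towards PICs (6.49%, against 22.7%). Prmt6, Kdm1b, Kdm8, Sirt5, Kmt2d, Hdac6 and Kat8 were among those that missed the threshold under several alternatives. The median difference kept between -0.27 and -0.21. With the replicate block as a term, the pairing changed no member's call: 5 members were called higher in PICs and 11 in satellite cells. Past the adjusted p were 8 towards PICs (10.4%, against 31% of all genes) and 30 towards satellite cells (39%, against 32.4%). The added ones were Kdm5c and Sirt1. Members at levels near the low value level, such as Hdac8, Sirt4 and Suv39h2, have the least signal over background.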
